A study of Homo sapiens with 24 samples.

Results

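The experiment lowered ZIC2 in human embryonic stem cells of the H1 line that had been taken to ectoderm, and RNA was collected on day 2. It comprised 3 libraries labelled as ZIC2 knockdown and 3 libraries labelled nontargeting, the control in which the knockdown is aimed at no gene, out of 24 libraries in the series. All 6 libraries came from H1 cells treated with doxycycline, the drug that switches on inducible constructs, and both groups therefore carry that treatment. Before differentiation the cells were kept in StemFlex medium, and polyadenylated RNA was sequenced. The labels do not say how the knockdown was made, which medium drove the cells to ectoderm, or whether the replicates were separate cultures, so the p-values below measure the spread between these libraries, which may be technical. Of 60671 genes listed, the 15013 that passed a filter on low counts in the 6 libraries make up the comparison. The other libraries used here are 3 CARHSP1 knockdown and 3 nontargeting libraries of primed H1 cells, and 3 ZNF8 knockdown and 3 nontargeting libraries of naive H1 cells, all also treated with doxycycline.

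ZIC2 is a zinc finger transcription factor of the ZIC family, whose members share a DNA-binding domain related to that of the GLI proteins, the effectors of Hedgehog signalling. In the embryo it is present in the epiblast and then in the neural plate, and loss of 1 copy in people causes holoprosencephaly, a failure of the forebrain to divide into hemispheres. When pluripotent stem cells turn into ectoderm they first shut down part of the pluripotency programme and the genes that FGF signalling keeps on, and they switch on neural plate genes such as OTX2, HESX1 and SIX3. A bulk library averages over all cells, so fewer cells of a type and less RNA per cell cannot be told apart in any of the results below.

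The 6 libraries held between 6756704 counts (nontargeting replicate 1) and 12163126 counts (knockdown replicate 2). The first principal component, with 55.1% of the variance, separated knockdown from control, and the second, with 14.7%, set nontargeting replicate 1 apart from the other 2 controls. Each level is in CPM, a read count set relative to the TMM-scaled depth of its library. Errors after ± are standard deviations over 3 libraries unless a log2 change is given, whose error is a standard error, and each log2 change is knockdown minus nontargeting. Tests are edgeR quasi-likelihood tests with Benjamini-Hochberg adjustment over all 15013 genes, and a gene passed at an adjusted p under 0.05. The ectoderm label was checked against its markers in the controls. OTX2, SIX3 and LHX5 averaged 572, 196 and 113 CPM there, against 31.6, 0.0741 and 0.183 CPM in the nontargeting primed libraries (scaled over all 18 H1 libraries, as are all primed and naive levels below), while PAX6, a later neural marker, stood at 2.29 CPM and RAX at 0 counts. The pluripotency factor POU5F1 was still at 453 CPM, and DNMT3B, a DNA methyltransferase of the epiblast, at 1549 CPM.

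The targeted gene was lower in all 3 libraries labelled as knockdown. ZIC2 lies on the plus strand of chromosome 13 (GRCh38, chr13:99981772-99986773). Its level was 632, 559.6 and 506 CPM in the 3 nontargeting libraries and 271, 267 and 277 CPM in the 3 knockdown libraries. The groups did not overlap, and the knockdown left ZIC2 2.08-fold lower (log2 change -1.06 ± 0.07, edgeR adjusted p = 1.18e-10). The remaining level was still above the 189 CPM of the nontargeting primed libraries.

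ZIC1 and ZIC4 were lower as well, and ZIC5 did not pass. ZIC1, which lies next to ZIC4, went from 296 ± 20.7 (SD, n = 3) to 185 ± 15.95 CPM (log2 change -0.68 ± 0.07, edgeR adjusted p = 1.76e-07). ZIC4 was at 14.5, 16.5 and 16.8 CPM in the controls and 5.81, 6.61 and 5.05 CPM in the knockdown libraries (log2 change -1.45 ± 0.19, edgeR adjusted p = 4.69e-06). Both were lower in every knockdown library than in any control, but the 2 genes overlap on opposite strands and whether reads were assigned by strand is not stated in the labels, so reads of ZIC1 in the shared stretch may be counted for ZIC4. ZIC5, the neighbour of ZIC2 on chromosome 13, was at 251 ± 11.1 CPM in the controls and 264 ± 5.64 CPM in the knockdown libraries with overlapping groups, and did not pass (log2 change 0.07 ± 0.06, edgeR adjusted p = 0.387). Per transcript length, on a length-scaled version of the CPM scale, ZIC2 was the most abundant of these 4 genes in the controls at 679, followed by ZIC5 at 213, ZIC1 at 171 and ZIC4 at 7.36. In the knockdown libraries the same scale gave 334 for ZIC2 and 230.5 for ZIC5.

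**Figure D1:**
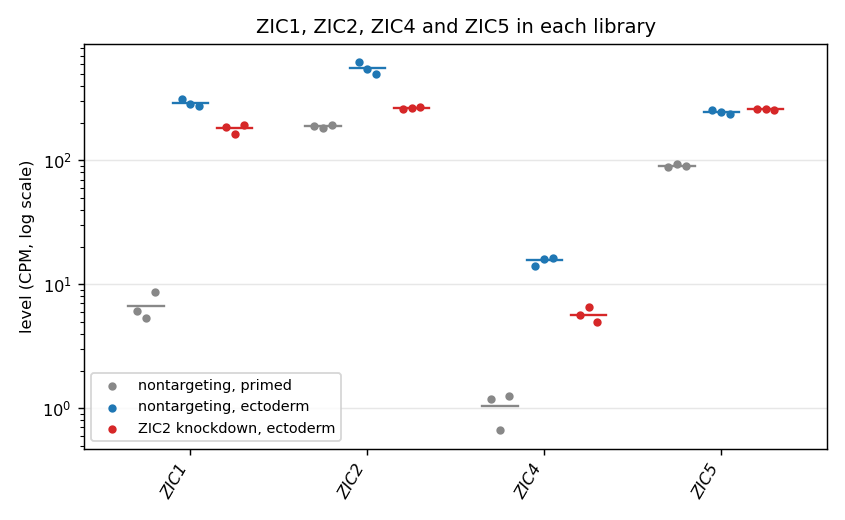
Level of ZIC1, ZIC2, ZIC4 and ZIC5 in CPM (log axis), scaled over all 18 H1 libraries, in 3 nontargeting primed, 3 nontargeting ectoderm and 3 ZIC2 knockdown ectoderm libraries. Points are libraries and bars are means; ZIC1, ZIC2 and ZIC4 sit lower in the knockdown than in the ectoderm controls, and the ZIC5 groups lie together.

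Across the transcriptome 2292 genes (15.3% of those tested) were higher in the knockdown libraries and 1925 (12.8%) were lower. Changes of at least 2-fold were more often upward, with 570 genes higher and 229 lower by that much. The median log2 change of all tested genes was -0.011. The downward changes of at least 2-fold included NPTX1, which encodes a neuronal pentraxin secreted at synapses, at 190.1, 165 and 170.1 CPM in the controls and 11.1, 12.001 and 12.2 CPM in the knockdown libraries (log2 change -3.90 ± 0.09, edgeR adjusted p = 3.67e-18). The upward ones included TDGF1, the Nodal co-receptor also called CRIPTO, at 7.67, 5.39 and 6.88 CPM in the controls and 179, 212 and 199.6 CPM in the knockdown libraries (log2 change 4.90 ± 0.11, edgeR adjusted p = 2.76e-18). The log2 change correlated across 14960 genes with GC content (Spearman's rho 0.329, a description across genes, which are not independent replicates). With the trends in GC content and length removed 1712 genes were higher and 1906 lower, and 108 of the 4217 calls turned direction.

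**Figure D2:**
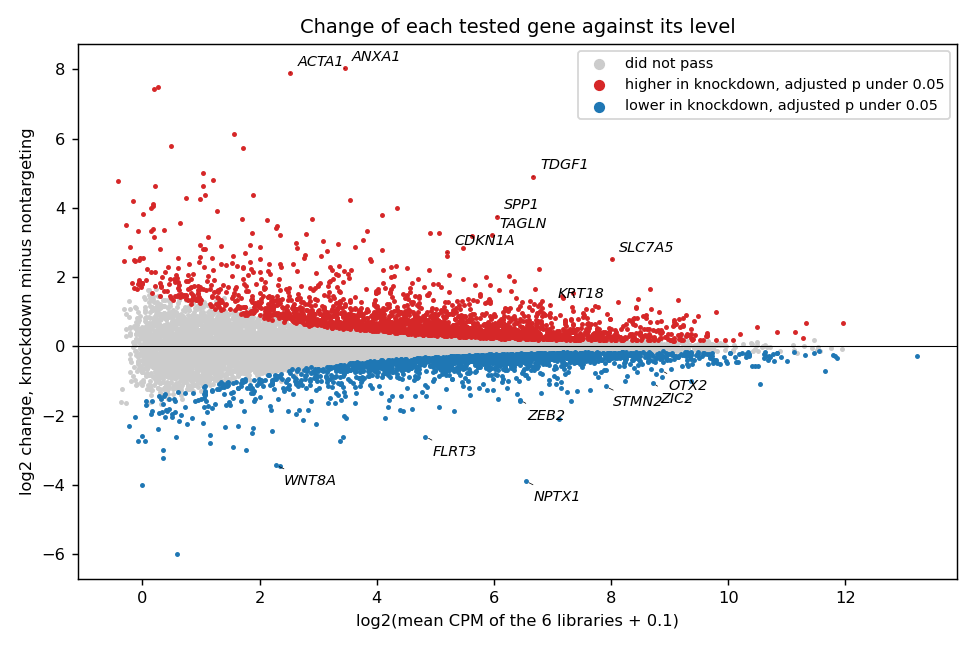
Log2 change of each of the 15013 tested genes (knockdown minus nontargeting) against its mean level, as log2(mean CPM of the 6 libraries + 0.1). Red points are the 2292 genes that were higher and blue points the 1925 that were lower at an adjusted p under 0.05; NPTX1 and FLRT3 stand out below and TDGF1, SPP1, ANXA1 and ACTA1 above.

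Many markers of neural progenitors fell. Of 28 listed progenitor markers 21 were measured, and 11 were lower (52.4%) and 6 higher (28.6%), against 12.8% and 15.3% of all tested genes. Their median log2 change was -0.40, against -0.011 over all tested genes. ZEB2, a repressor of epithelial genes, was at 135, 135 and 120.5 CPM in the controls and at 44.2, 42.5 and 46.7 CPM in the knockdown libraries, and had no count in the 3 nontargeting primed libraries (log2 change -1.55 ± 0.08, edgeR adjusted p = 2.64e-12). The zinc finger gene ZNF521, which drives neural conversion of stem cells, fell from 94.2 ± 11.4 to 45.8 ± 1.81 CPM, and POU3F1, a POU factor of the same transition, from 75.4 ± 11.3 to 32.3 ± 1.3 CPM. DLK1, an imprinted gene encoding a Notch-related surface protein, fell from 34.3 ± 1.13 to 9.43 ± 2.57 CPM, and FABP7, a fatty acid carrier of radial glia, from 24.1 ± 3.88 to 9.42 ± 1.39 CPM. The groups of these 5 genes did not overlap. SOX2, shared by pluripotent and neural cells, was lower by less, at 761, 725 and 869.5 CPM in the controls and 542, 526 and 594 CPM in the knockdown libraries (log2 change -0.50 ± 0.07, edgeR adjusted p = 6.93e-06). Its relative SOX3 went the other way, from 13.9 ± 1.56 to 31.6 ± 2.42 CPM, and the intermediate filament gene VIM was also higher (log2 change 0.40 ± 0.07). SOX1 (log2 change 0.39 ± 0.17), PAX6 (-0.46 ± 0.45) and SOX21 (-0.09 ± 0.08) did not pass.

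Factors of the anterior neural plate divided, with 3 higher (30.0%), 3 lower (30.0%) and 4 that did not pass, against 15.3% and 12.8% of all tested genes. With the trends in GC content and length removed 2 were higher and 4 lower. The summed level of the list was lower, at 1346 to 1560 CPM in the controls and 1047 to 1166 CPM in the knockdown libraries. Of 23 listed factors of the anterior neural plate 10 passed the filter. Among those that did not, SIX6 had 31 counts in the knockdown libraries and 1 in the controls, LHX2 had 0 and 4, and RAX had 0 in both. OTX2, which specifies forebrain and midbrain, was at 607, 595 and 514 CPM in the controls and 347, 351 and 367 CPM in the knockdown libraries (log2 change -0.69 ± 0.06, edgeR adjusted p = 3.68e-08). HESX1, a repressor needed for the forebrain, was at 86.9, 86.2 and 76.1 CPM in the controls and 34.6, 31.5 and 37.5 CPM after knockdown (log2 change -1.27 ± 0.10, edgeR adjusted p = 1.06e-09). FEZF1, a zinc finger gene of the same region, fell from 266 ± 35.3 to 156 ± 10.8 CPM, and an overlapping antisense transcript may share reads with it. SIX3, which represses posterior fate in the forebrain, was at 211, 201 and 176 CPM in the controls and 174, 177 and 211 CPM in the knockdown libraries. Its groups overlapped, as did those of LHX5 and SP8, and none of the 3 passed (log2 changes -0.06 ± 0.08, -0.13 ± 0.10 and -0.05 ± 0.08), although LHX5 was called lower with the trends in GC content and length removed (log2 change -0.42, edgeR adjusted p = 0.000178). The 3 higher factors were FEZF2, EMX1 and TCF7L1. FEZF2, a zinc finger gene of the forebrain, had 0 counts in the 3 controls and 70 in the knockdown libraries, at least 20.53-fold higher against a floor of 3 counts over the control group. EMX1, a factor of the dorsal forebrain, rose from 0.16 ± 0.117 to 1.54 ± 0.47 CPM. Both FEZF2 and EMX1 passed the filter on low counts only through the knockdown libraries, where they were higher. TCF7L1, a repressor of WNT targets, rose from 178 ± 8.27 to 211 ± 18.3 CPM (log2 change 0.25 ± 0.07), but it did not pass and its sign turned with the trends in GC content and length removed (log2 change -0.052, edgeR adjusted p = 0.615), nor did it pass without knockdown replicate 3 (0.0542). Of genes of more posterior or dorsal neural tissue, OLIG3, a factor of dorsal progenitors, fell from 99.8 ± 3.65 to 34.5 ± 2.79 CPM and IRX5 from 10.97 ± 1.78 to 4.51 ± 1.04 CPM, while NKX1-2, found in the posterior epiblast, rose from 0.98 ± 0.447 to 9.04 ± 1.4 CPM.

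Genes of the neuronal surface and of axon guidance were split, with 15 of 38 measured members lower (39.5%) and 11 higher (28.9%). Over all tested genes 12.8% were lower and 15.3% higher. Among receptors, EPHA4 fell from 162 ± 6.68 to 82.6 ± 2.56 CPM, EPHB2 from 188 ± 7.76 to 107 ± 0.979 CPM and NRP2, a semaphorin co-receptor, from 735 ± 10.97 to 519 ± 10.1 CPM. The ligands EFNB2 and SEMA6A rose, EFNB2 from 12.1 ± 1.74 to 35.3 ± 3.24 CPM and SEMA6A from 437 ± 11.5 to 766 ± 22.6 CPM. CNTNAP2, a neurexin-like adhesion protein, fell (log2 change -0.55 ± 0.06, edgeR adjusted p = 2.52e-07). Of early neuron markers 8 of 12 did not pass, among them MAP2 and INA. The 2 that rose and the 2 that fell (16.7% each) were near the shares of all tested genes. STMN2, a regulator of microtubules in growth cones, was at 372, 323 and 302 CPM in the controls and 152, 145 and 149 CPM in the knockdown libraries (log2 change -1.16 ± 0.07, edgeR adjusted p = 4.42e-11). NEUROD4, a proneural factor, had 77 counts in the controls and 1 in the knockdown libraries, a ratio of 87.5 with a 95% counting interval of 15.24 to 3500. TUBB3 was higher at a low level (4.77 ± 1.8 against 9.91 ± 1.21 CPM).

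Several genes chosen by the size of their change alone also encode neuronal surface or signalling proteins. Others chosen in the same way, among them CYP26C1, F10, ARHGAP15 and LRRC17, were not counted as neuronal. DRD2, a dopamine receptor, stood at 9.59, 9.18 and 8.91 CPM in the controls and 0.572, 1.22 and 0.618 CPM in the knockdown libraries. GRM3, a glutamate receptor, stood at 13.7, 22.4 and 17.2 CPM in the controls and 2.48, 3.1 and 2.37 CPM in the knockdown libraries. OLFM3 (log2 change -2.44 ± 0.32), THSD7B (-2.62 ± 0.22) and VIPR2, a receptor for the peptide VIP (-2.23 ± 0.25), fell as well. For all of these every knockdown library was below every control.

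Genes high in primed cells and low in the ectoderm controls were among those that rose. TDGF1, given above, averaged 893 CPM in the nontargeting primed libraries, so its knockdown level of 197 ± 16.7 CPM lay between that and the ectoderm control. The processed copy TDGF1P3 rose beside it from 0.327 ± 0.122 to 6.84 ± 0.509 CPM, and reads may be split between the near-identical sequences. The core pluripotency list had 5 of 19 measured members higher (26.3%) and 3 lower (15.8%), against 15.3% and 12.8% of all tested genes. The share that fell was near that of all tested genes. The median log2 change of the list was -0.003, and 3 were higher without knockdown replicate 2. NANOG was higher at 6.1, 10.5 and 7.73 CPM against 4.28, 3.69 and 3.99 CPM, far below the 132 CPM of the primed controls (log2 change 1.04 ± 0.26, edgeR adjusted p = 0.00456), and without knockdown replicate 2 it did not pass (edgeR adjusted p = 0.0569). POU5F1 (log2 change -0.11 ± 0.07), DPPA4 (-0.05 ± 0.05) and DNMT3B (0.01 ± 0.05) did not pass, though POU5F1 was called lower without nontargeting replicate 1 (log2 change -0.18, edgeR adjusted p = 0.0437). LIN28A, which blocks let-7 maturation, was lower (log2 change -0.35 ± 0.05). LNCPRESS1, a long noncoding RNA of pluripotent cells, rose from 7.42 ± 1.44 to 26.9 ± 0.671 CPM. The summed level of the list lay between 10060 and 10620 CPM in the knockdown libraries and between 10770 and 11410 CPM in the controls.

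Many FGF ligands and feedback genes of ERK signalling were higher. Of 23 measured members of that pathway 14 rose (60.9%) and 2 fell (8.7%), with a median log2 change of 0.53. Over all tested genes 15.3% rose and 12.8% fell. FGF2, a ligand that keeps primed cells pluripotent, was at 57.1, 65.4 and 70.97 CPM in the controls and 157, 179 and 151 CPM in the knockdown libraries (log2 change 1.32 ± 0.09, edgeR adjusted p = 9.11e-11), and FGF19 rose from 8.08 ± 0.525 to 23.6 ± 2.64 CPM. SPRY4, an inhibitor induced by the pathway, was at 12.1, 8.79 and 10.2 CPM in the controls and 64.2, 58.3 and 66.7 CPM in the knockdown libraries (log2 change 2.62 ± 0.13, edgeR adjusted p = 8.85e-13). DUSP6, the ERK phosphatase, was at 1.62, 0.3 and 0.679 CPM in the controls and 8.48, 9.23 and 8.14 CPM in the knockdown libraries. The ETS factors ETV4 and ETV5, transcriptional outputs of FGF, rose from 36.3 ± 2.05 to 85.4 ± 4.2 CPM and from 4.25 ± 0.252 to 29.5 ± 4.46 CPM. In the primed controls SPRY4, DUSP6, ETV4 and ETV5 stood at 172, 49.7, 231 and 67.9 CPM, above both ectoderm groups. FLRT3, a membrane protein that binds FGF receptors, was 1 of the 2 that fell, at 48.8, 50.3 and 47.1 CPM in the controls and 8, 8.57 and 7.32 CPM after knockdown (log2 change -2.61 ± 0.13, edgeR adjusted p = 1.29e-12).

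**Figure D3:**
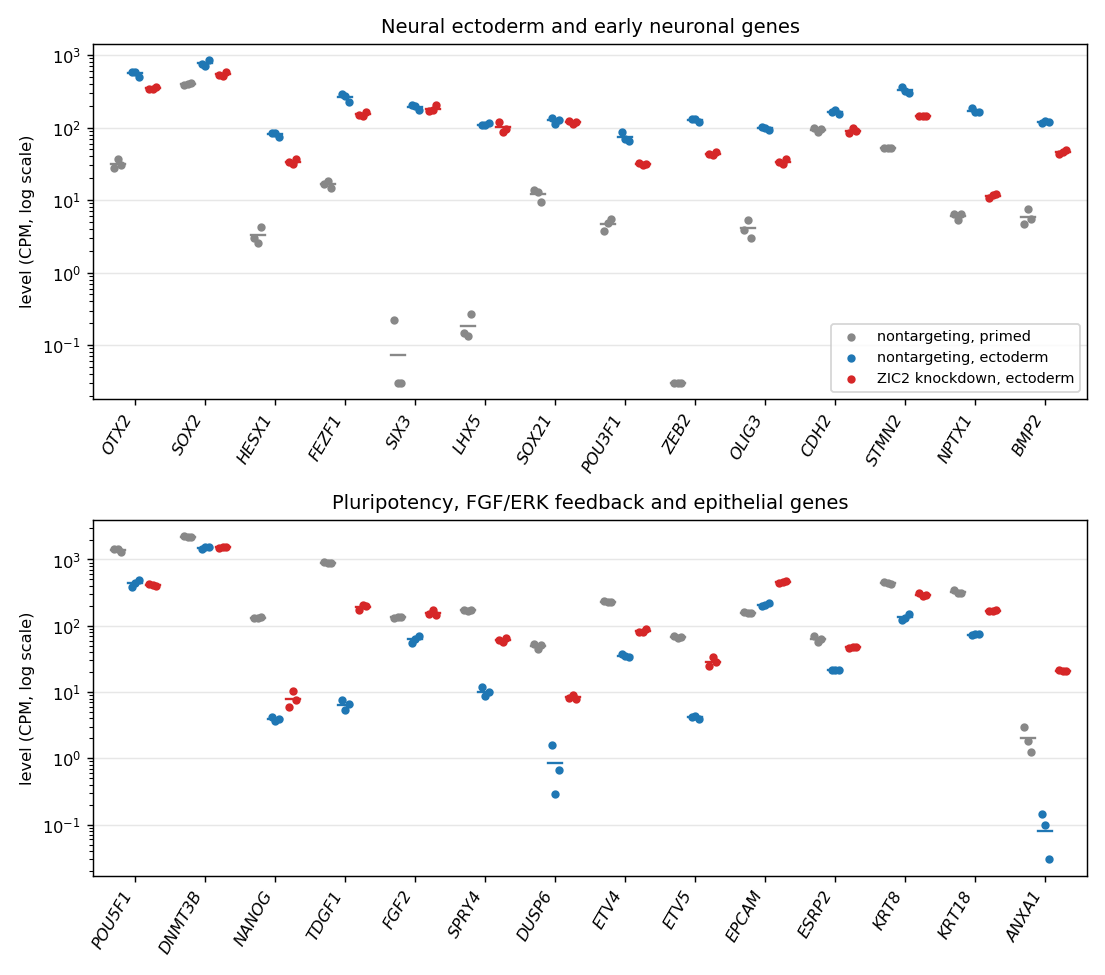
Level in CPM (log axis, scaled over all 18 H1 libraries; libraries at or near 0 are drawn at the foot of the axis) of neural ectoderm and early neuronal genes (top) and of pluripotency, FGF/ERK and epithelial genes (bottom). Points are the 3 libraries of each group and bars their means; SIX3, LHX5 and SOX21 stay close to the ectoderm controls, while TDGF1, SPRY4, ETV4, ETV5 and DUSP6 sit between the ectoderm and the primed controls.

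Epithelial and surface ectoderm genes rose. Of 15 measured members of the surface ectoderm and placode list 11 were higher (73.3%) and none was lower, with a median log2 change of 0.75. Over all tested genes 15.3% were higher and 12.8% lower. With the trends in GC content and length removed 11 were higher and 2 lower. In the fit over all 18 H1 libraries 1 of the 15 was lower. The keratin gene KRT8, of simple epithelia, was at 124, 134 and 154 CPM in the controls and 319.9, 284 and 302 CPM in the knockdown libraries, and its partner KRT18 at 73.2, 77.6 and 75.98 CPM and 174, 172 and 175 CPM, respectively (log2 changes 1.13 ± 0.07 and 1.20 ± 0.07). EPCAM, an epithelial adhesion protein, rose from 213 ± 12.5 to 473 ± 8.12 CPM. ESRP2, which is outside this list and encodes an epithelial splicing regulator, rose from 22.1 ± 0.286 to 48.7 ± 0.643 CPM. GRHL3, a factor of surface ectoderm, rose from 0.398 ± 0.344 to 5.87 ± 0.484 CPM, and GATA3 had 0 counts in the controls and 72 in the knockdown libraries, at least 21.12-fold higher against the floor of 3 counts. Both GRHL3 and GATA3 passed the filter on low counts only through the knockdown libraries, so their rise adds no support to the count of this list. The cadherins divided: CDH2, the neural N-cadherin, fell from 169 ± 9.74 to 92.6 ± 6.89 CPM, CDH3 rose from 239.7 ± 4.01 to 374 ± 15.5 CPM, and CDH1, the epithelial E-cadherin, did not pass at 794 ± 7.94 and 785 ± 23.2 CPM. The summed level of the list was 1409 to 1444 CPM in the controls and 2015 to 2028 CPM in the knockdown libraries. Its defining markers KRT5 and TP63 had 0 counts in both ectoderm groups.

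Markers of other lineages were mostly at low counts. Of 17 amnion and trophoblast markers 5 were measured, of which 3 were higher and 1 lower, with a median log2 change of 1.35. Among those under the filter, GATA2 had 48 counts in the knockdown libraries and 4 in the controls, ISL1 had 15 and 0, and VTCN1 had 8 and 21. TFAP2A had 3 counts in the knockdown libraries and 0 in the controls, TFAP2B, CGA and HAND1 had 0 in both. The risers were GATA3, BMP4 and GABRP, and GABRP rose from 0.144 ± 0.0575 to 4.25 ± 0.593 CPM. Both GATA3 and GABRP passed the filter on low counts only through the knockdown libraries, where they were higher. The count of risers and the median of the list rest in part on that filter and add no support. The amnion list of 5 measured genes summed to 49.05 to 64.87 CPM in the knockdown libraries and 77.37 to 79.29 CPM in the controls, and IGFBP3, its most abundant member, fell from 61.5 ± 0.792 to 27.5 ± 3.61 CPM. For neural crest and the neural border 5 of 10 measured genes were higher and 1 lower, with NGFR at 22.7, 24.2 and 22.7 CPM in the controls and 103, 89.1 and 85.3 CPM in the knockdown libraries, and SOX9 higher (log2 change 0.53 ± 0.09). The lower gene, LMX1A, fell from 2.88 ± 0.591 to 1.12 ± 0.661 CPM, and no gene of the list was called lower without knockdown replicate 2 or 3 or without any 1 of the 3 controls. Of its 9 genes under the filter, DLX5 had 39 counts in the knockdown libraries and 1 in the controls, MSX2 had 19 and 7, TWIST1 had 12 and 0, SNAI2 had 10 and 2, PAX3 had 6 and 3, DLX6 and TFAP2A each had 3 and 0, and MSX1 and TFAP2B had 0 in both. In the fit over all 18 H1 libraries 8 of 17 genes of the list were higher and none was lower, against 16.1% and 13.3% of all genes in that fit. The median log2 change was 1.49 there, against 0.476 for the 10 genes measured above. The genes added in that fit failed the filter in the ectoderm libraries, so its higher median rests on genes with few counts and adds no support. The summed level of that list was 94.57 to 99.34 CPM in the controls and 188.0 to 209.9 CPM in the knockdown libraries. For mesoderm and endoderm, TBXT had 39 and 21 counts in the knockdown and control libraries and SOX17 had 0 in both. The part of such cells in the results was not tested.

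Single genes of the WNT, BMP, Nodal, Notch and Hedgehog pathways passed in each direction, in shares that were in part near the 15.3% higher and 12.8% lower of all tested genes. Among WNT genes 7 of 23 measured members fell (30.4%) and 5 rose (21.7%), or 3 rose without nontargeting replicate 2. The ligand WNT8A was at 7.97, 8.19 and 10.02 CPM in the controls and 1.33, 0.653 and 0.412 CPM in the knockdown libraries, and the secreted inhibitors SFRP1 and FRZB fell from 1623 ± 29.5 to 1089 ± 18.998 CPM and from 162 ± 4.93 to 104 ± 2.92 CPM. The receptor FZD7 rose from 411 ± 22.7 to 669 ± 58.5 CPM, and AXIN2, a direct target of the pathway, did not pass (log2 change -0.26 ± 0.17). Among BMP genes 6 of 13 rose (46.2%) and 2 fell (15.4%). The ligand BMP2 was at 120.0, 124 and 121 CPM in the controls and 44.96, 46.5 and 49.5 CPM in the knockdown libraries (log2 change -1.38 ± 0.08, edgeR adjusted p = 8.72e-12), and BMP4 went the opposite way, from 6 ± 0.82 to 15.2 ± 1.48 CPM. Targets of BMP also divided, with ID2 lower (-0.79 ± 0.09) and ID3 (1.48 ± 0.15), ID4 (1.09 ± 0.18) and BAMBI (2.30 ± 0.28) higher on the log2 scale.

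In the Nodal list 6 of 15 measured members rose (40.0%) and 3 fell, but none was called lower without knockdown replicate 2 and 1 without nontargeting replicate 3. Beside TDGF1, FOXH1, the DNA-binding partner of activated SMAD proteins, rose from 35.7 ± 2.99 to 60.04 ± 11.2 CPM, and INHBE, an activin subunit, from 6.75 ± 0.949 to 33.4 ± 1.04 CPM, while the feedback targets LEFTY1 and LEFTY2 had at most 19 counts in either group. Notch genes gave 6 higher (37.5%) and 2 lower (12.5%) of 16, with a median log2 change of 0.166. With the trends in GC content and length removed 4 were higher and 3 lower, with a median of -0.06. Without knockdown replicate 2 there were 4 higher and 1 lower. The lower count was 1 also without knockdown replicate 3 and without nontargeting replicate 1 or 2. DLL1, a Notch ligand, rose from 0.918 ± 0.157 to 6.95 ± 1.93 CPM and NOTCH1 from 30.3 ± 1.92 to 74.4 ± 22.4 CPM, though knockdown replicate 1, at 99.7 CPM, was well above the other 2, and HES1 did not pass (log2 change -0.28 ± 0.10), though it was called lower without knockdown replicate 1 (edgeR adjusted p = 0.00878), without nontargeting replicate 3 (0.0476) and with no filter on low counts (0.0278). In the Hedgehog list 4 of 15 measured members rose (26.7%) and 3 fell, or 2 and 5 with the trends in GC content and length removed, and the ligand gene SHH had 1 count in the knockdown libraries and 0 in the controls. PTCH1, the receptor and a target of the pathway, rose from 88.5 ± 9.5 to 161 ± 4.39 CPM and GLI1, another target, from 18.98 ± 2.24 to 26.7 ± 3.36 CPM, whereas GLI3, the main repressor, and CDON, a co-receptor, fell (log2 changes -0.40 ± 0.08 and -0.40 ± 0.10). GLI1 did not pass with the trends in GC content and length removed (edgeR adjusted p = 0.126), without knockdown replicate 3 (0.0675) or without nontargeting replicate 3 (0.0549). Of 20 measured genes other than ZIC2 that are linked to holoprosencephaly 7 rose and 2 fell, with 1 lower without knockdown replicate 1 or 2 or nontargeting replicate 1 or 2, and the risers TDGF1, FOXH1, PTCH1, FGFR1 and DLL1 stood beside SIX3 and TGIF1, which did not pass.

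Genes of the actin cytoskeleton that are targets of the factor SRF were higher almost without exception. Of 18 measured members 16 rose (88.9%) and none fell, against 15.3% and 12.8% of all tested genes. The median log2 change was 0.84, and the exceptions were TPM4 (log2 change 0.10 ± 0.06) and ACTA2 (0.62 ± 0.32), which did not pass. TAGLN, an actin-binding protein of smooth muscle, was at 11.4, 11.9 and 12.8 CPM in the controls and 119.5, 107 and 112 CPM in the knockdown libraries (log2 change 3.22 ± 0.10, edgeR adjusted p = 6.67e-16). MYL9, a myosin light chain, was at 36.6, 37.6 and 40.4 CPM in the controls and 180.1, 167 and 193 CPM in the knockdown libraries (log2 change 2.23 ± 0.08, edgeR adjusted p = 5.02e-15). Abundant members rose by less: ACTB from 3075 ± 144 to 4933 ± 220.0 CPM and VCL, a focal adhesion protein, from 501 ± 24.2 to 924 ± 22.6 CPM. ACTA1, skeletal muscle actin, had 1 count in the controls and 364 in the knockdown libraries, a ratio of 320.3 with a 95% counting interval of 57.13 to 12690.

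Promoters of these genes were searched for the CArG box, the element that SRF binds. RefSeq windows from 250 bases before to 50 bases after the gene start (GRCh38.p14) were found for 15 of the 18, and 7 of them (46.67%) held a CArG box, against 1.04% of the 11058 promoters of tested genes that matched, 1.65% of those of higher and 1.21% of those of lower genes. The list was drawn up as SRF targets, so its share describes the list and is no test of the knockdown. The 130 bases before the start are shown for the 6 that rose, chosen after their values were seen, with each CArG box in capitals, because they carry the element the list is named for. Their windows are chr1:229434095-229434224 (minus strand) for ACTA1, chr15:34795550-34795679 (minus) for ACTC1, chr2:73892878-73893007 (plus) for ACTG2, chrX:154374635-154374764 (minus) for FLNA, chr19:1026478-1026607 (plus) for CNN2 and chr6:43171139-43171268 (plus) for SRF.
ACTA1: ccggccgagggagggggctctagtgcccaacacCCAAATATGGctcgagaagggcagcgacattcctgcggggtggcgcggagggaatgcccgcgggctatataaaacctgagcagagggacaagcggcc
ACTC1: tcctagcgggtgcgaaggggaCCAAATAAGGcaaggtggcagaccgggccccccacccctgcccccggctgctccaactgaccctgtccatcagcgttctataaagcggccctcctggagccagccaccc
ACTG2: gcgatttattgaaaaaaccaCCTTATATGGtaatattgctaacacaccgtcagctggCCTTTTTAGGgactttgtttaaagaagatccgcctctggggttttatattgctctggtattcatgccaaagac
FLNA: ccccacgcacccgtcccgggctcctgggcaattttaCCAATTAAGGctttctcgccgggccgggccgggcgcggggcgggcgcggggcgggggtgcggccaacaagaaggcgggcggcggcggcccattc
CNN2: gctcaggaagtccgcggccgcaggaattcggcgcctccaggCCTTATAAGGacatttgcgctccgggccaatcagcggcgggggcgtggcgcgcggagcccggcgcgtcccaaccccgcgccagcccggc
SRF: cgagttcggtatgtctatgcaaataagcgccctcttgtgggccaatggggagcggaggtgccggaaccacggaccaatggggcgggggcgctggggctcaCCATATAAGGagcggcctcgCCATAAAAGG
The box starts 97 bases before the gene start in ACTA1, 109 in ACTC1, 110 and 73 in ACTG2, 94 in FLNA, 89 in CNN2, and 30 and 10 in SRF. ACTC1 went from 2.26 to 17.7 CPM, FLNA from 598 to 1180.4 CPM, CNN2 from 237 to 355 CPM and SRF itself from 93.3 to 117 CPM. ACTG2 did not pass without knockdown replicate 2 or without nontargeting replicate 2 or 3 (edgeR adjusted p = 0.170, 0.0608 and 0.0588), and SRF did not pass with the trends in GC content and length removed (0.727). TPM4, which also holds a CArG box in its window and did not pass, is the seventh.

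Most YAP targets and matrix genes also rose. Of 15 measured targets and partners of the coactivator YAP 10 were higher (66.7%) and 2 lower (13.3%), against 15.3% and 12.8% of all tested genes. Only 1 was lower without knockdown replicate 1 or 2 or nontargeting replicate 1 or 2. CCN2, a matrix-bound growth factor, was at 9.89, 9.18 and 12.9 CPM in the controls and 78.5, 80.3 and 73.8 CPM in the knockdown libraries (log2 change 2.84 ± 0.12, edgeR adjusted p = 1.30e-13), CCN1 rose from 18.97 ± 2.54 to 56.3 ± 3.94 CPM, and YAP1 did not pass (log2 change -0.04 ± 0.07). Among 28 measured collagens, laminins and other matrix genes 18 rose (64.3%) and 4 fell (14.3%), and 2 fell without knockdown replicate 2. In both lists the share that fell was near that of all tested genes. COL12A1, a fibril-associated collagen, went from 1.01 ± 0.598 to 13.7 ± 1.23 CPM, TNC, the matrix protein tenascin C, from 1.83 ± 0.485 to 11.7 ± 1.54 CPM, and SPARC from 269 ± 10.8 to 414 ± 23.1 CPM. The fibroblast markers COL3A1 and LUM had 0 counts in both groups. ANXA1, a calcium-dependent membrane binder, had 2 counts in the controls and 701 in the knockdown libraries, a ratio of 308.4 with a 95% counting interval of 85.07 to 2552. ANXA3 rose from 5.71 ± 0.626 to 54.2 ± 3.11 CPM and S100A10, a partner of annexin A2, from 33.9 ± 1.48 to 86.5 ± 5.94 CPM, while ANXA5 did not pass (log2 change -0.04 ± 0.06).

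Secreted factors were among the genes with the largest upward log2 changes. SPP1, osteopontin, was at 7.82, 11.9 and 7.64 CPM in the controls and 113, 124 and 133 CPM in the knockdown libraries (log2 change 3.75 ± 0.13, edgeR adjusted p = 2.46e-15). EDN1, the vasoconstrictor endothelin 1, was at 3.1, 1.5 and 2.38 CPM in the controls and 32.8, 28.7 and 33.2 CPM in the knockdown libraries (log2 change 3.80 ± 0.20, edgeR adjusted p = 4.65e-12). ADM, adrenomedullin, had 3 counts in the controls and 201 in the knockdown libraries, and TAC1, which encodes substance P, had 2 and 185. Apart from these secreted factors, SERPINB9, an inhibitor of granzyme B, rose from 1.18 ± 0.348 to 21.9 ± 7.04 CPM, with knockdown replicate 3 lower than the other 2 at 14.3 CPM.

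Targets of the tumour suppressor p53 and genes of the integrated stress response rose nearly throughout. Of 20 p53 targets 18 were higher (90.0%) and none was lower, with a median log2 change of 1.03. Over all tested genes 15.3% were higher and 12.8% lower. CDKN1A, the cell cycle inhibitor p21, was at 10.5, 8.09 and 10.6 CPM in the controls and 66.4, 65.6 and 58.8 CPM in the knockdown libraries (log2 change 2.71 ± 0.13, edgeR adjusted p = 5.45e-13). MDM2, which degrades p53, rose from 49.2 ± 4.11 to 106 ± 4.46 CPM, PHLDA3 from 6.03 ± 0.912 to 28.4 ± 5.44 CPM and GDF15, a stress hormone, from 0.601 ± 0.36 to 7.98 ± 1.76 CPM, while TP53INP1 and FAS did not pass (log2 changes -0.12 ± 0.11 and 0.40 ± 0.21). Of 18 stress response genes 17 rose (94.4%) and 1 fell (5.6%), with a median log2 change of 1.18. SLC7A5, an amino acid transporter, was at 84.6, 74.5 and 72.8 CPM in the controls and 495, 417 and 410.4 CPM in the knockdown libraries (log2 change 2.52 ± 0.08, edgeR adjusted p = 6.79e-16). The cystine transporter SLC7A11 rose from 29.9 ± 4.64 to 123 ± 11.99 CPM, the serine synthesis enzyme PSAT1 from 323 ± 13.1 to 812 ± 11.2 CPM and the mitochondrial enzyme PCK2 from 50.2 ± 2.83 to 159 ± 11.4 CPM. SESN2, held by both lists, rose from 28.3 ± 2.62 to 71.98 ± 6.23 CPM.

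More proliferation genes fell than rose. Of 18 S phase genes 7 fell (38.9%) and 1 rose (5.6%), and of 16 mitosis genes 6 fell (37.5%) and 1 rose (6.2%). Over all tested genes 12.8% fell and 15.3% rose. The median log2 changes were -0.17 for S phase and -0.13 for mitosis. TOP2A, topoisomerase II alpha, fell from 1306 ± 23.2 to 955 ± 34.4 CPM, MCM6 of the replicative helicase from 271 ± 14.8 to 222 ± 4.84 CPM and MKI67 from 424 ± 24.5 to 363 ± 10.1 CPM, though MKI67 did not pass without knockdown replicate 2 (edgeR adjusted p = 0.0534). PCNA, the replication clamp, did not pass (log2 change 0.02 ± 0.08). Hypoxia and glycolysis genes divided evenly, 6 higher and 6 lower of 19 (31.6% each). PGK1, a glycolytic kinase, was at 803, 917 and 919 CPM in the controls and 412, 459.6 and 434 CPM in the knockdown libraries, LDHA fell from 603 ± 9.37 to 329 ± 17.7 CPM and PDK1 from 88.6 ± 6.64 to 37.3 ± 1.08 CPM. Against these, VEGFA, an angiogenic factor, rose from 33.4 ± 2.12 to 102 ± 5.36 CPM and the glucose transporter gene SLC2A1 from 79.9 ± 5.57 to 146 ± 16.6 CPM. Of 12 measured immediate early genes 6 rose and none fell, or 4 and 1 with the trends in GC content and length removed, with FOSL1 at 2.95, 1.7 and 3.06 CPM in the controls and 24.9, 25.5 and 27.3 CPM in the knockdown libraries.

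**Figure D4:**
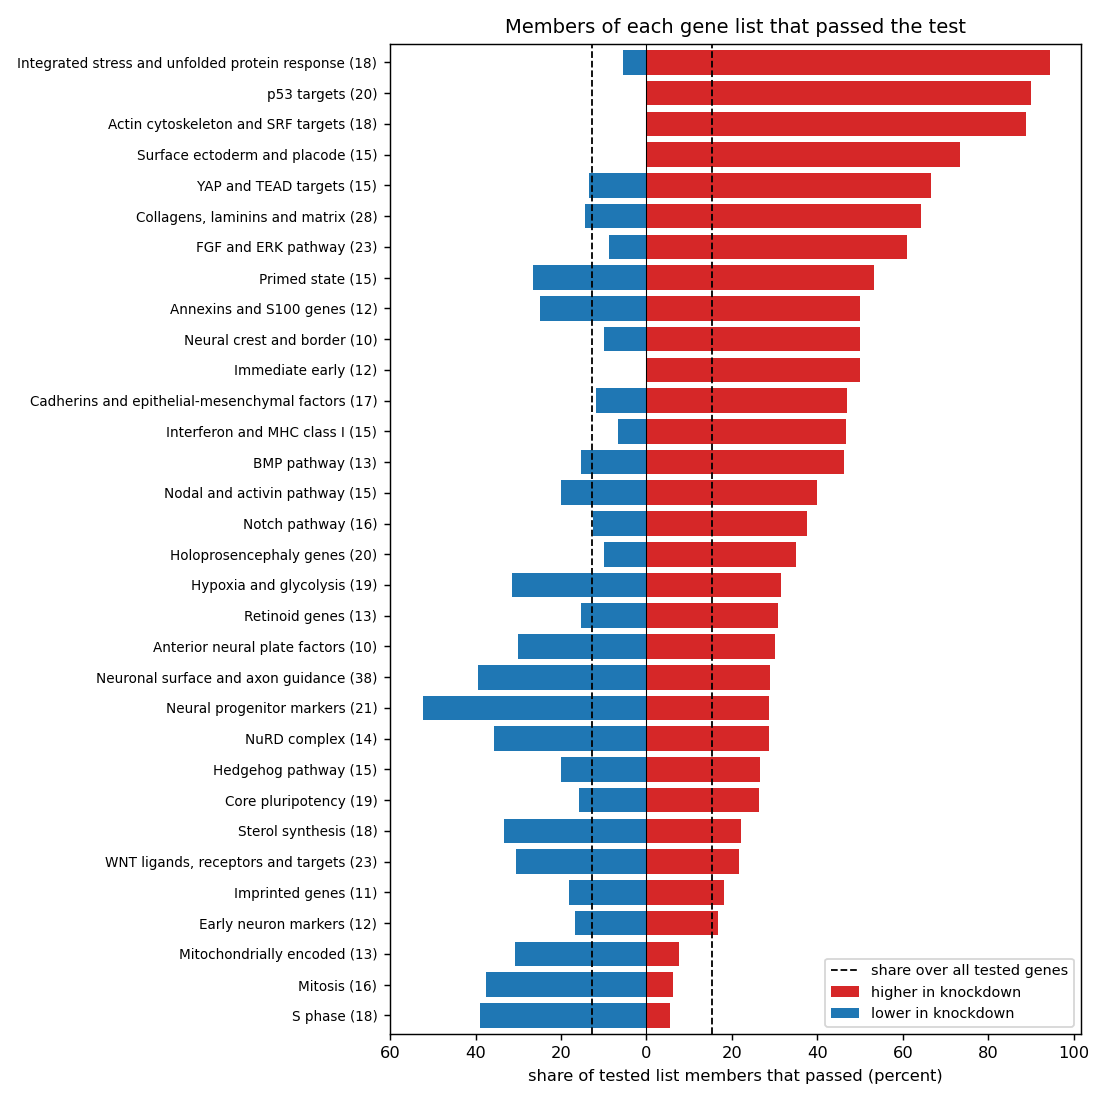
Share of the measured members of each gene list (number in brackets) that were higher (red, right) or lower (blue, left) in the knockdown libraries at an adjusted p under 0.05, for lists with at least 10 measured members. Dashed lines mark the shares over all tested genes, 15.3% higher and 12.8% lower; stress response, p53 and actin genes reach furthest to the right and neural progenitor markers furthest to the left.

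The same genes were followed in the knockdowns of CARHSP1 in primed cells and of ZNF8 in naive cells, each against its own controls, which share no library with the ectoderm pair. In a fit over all 18 H1 libraries the change with ZIC2 knockdown differed from that with CARHSP1 knockdown for 4781 of 17390 genes (27.5%) and from that with ZNF8 knockdown for 3105 genes (17.9%). The cell state and the target both differ between the pairs and cannot be told apart in these differences. In that fit 16.1% of genes were higher and 13.3% lower with ZIC2 knockdown, 6.76% and 6.22% with CARHSP1 knockdown, and 9.02% and 9.26% with ZNF8 knockdown. Of 18 actin genes 16 were higher with ZIC2 knockdown, 9 with CARHSP1 knockdown and 16 with ZNF8 knockdown, and none was lower in any. Of 20 p53 targets 18, 14 and 2 were higher in the same order, and of 18 stress response genes 17, 5 and 9. Of 23 progenitor markers 11, 3 and 8 were lower, and of 23 FGF and ERK genes 15, 2 and 4 were higher.

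For single genes the difference itself was tested. TAGLN changed by 3.22 on the log2 scale with ZIC2 knockdown, by 1.85 with CARHSP1 knockdown and by 2.27 with ZNF8 knockdown, and the change with ZIC2 knockdown was larger by 1.36 ± 0.12 (edgeR adjusted p = 3.27e-11) and 0.94 ± 0.13 (edgeR adjusted p = 7.16e-07). CDKN1A changed by 2.71, 1.04 and 0.55, with differences of 1.67 ± 0.19 (edgeR adjusted p = 8.50e-09) and 2.16 ± 0.19 (edgeR adjusted p = 1.83e-11). PCK2 is a gene with a larger change under ZNF8 knockdown, at 2.22 against 1.66 with ZIC2 knockdown, a difference of -0.56 ± 0.12 (edgeR adjusted p = 8.30e-04). NPTX1 passed with ZIC2 knockdown alone among the 3, which does not show that it was unchanged in the others. The differences were -3.66 ± 0.21 (edgeR adjusted p = 8.37e-17) from CARHSP1 and -4.65 ± 0.71 (edgeR adjusted p = 3.50e-06) from ZNF8 knockdown. TDGF1 changed by 0.22 with CARHSP1 and by -0.37 with ZNF8 knockdown, and its rise with ZIC2 knockdown was larger by 4.68 ± 0.11 and 5.28 ± 0.11 (edgeR adjusted p = 6.64e-30 and 4.81e-32). FLRT3 differed by -2.53 ± 0.38 and -2.32 ± 0.20 (edgeR adjusted p = 1.85e-06 and 3.73e-12). OTX2, at 31.6 and 61.1 CPM in the primed and naive controls, differed by -0.43 ± 0.12 and -0.55 ± 0.10 (edgeR adjusted p = 0.00415 and 1.34e-04). For ZEB2, with a mean of 0 CPM in the primed and 0.0579 CPM in the naive controls, the difference from CARHSP1 knockdown did not pass (edgeR adjusted p = 0.125).

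**Figure D5:**
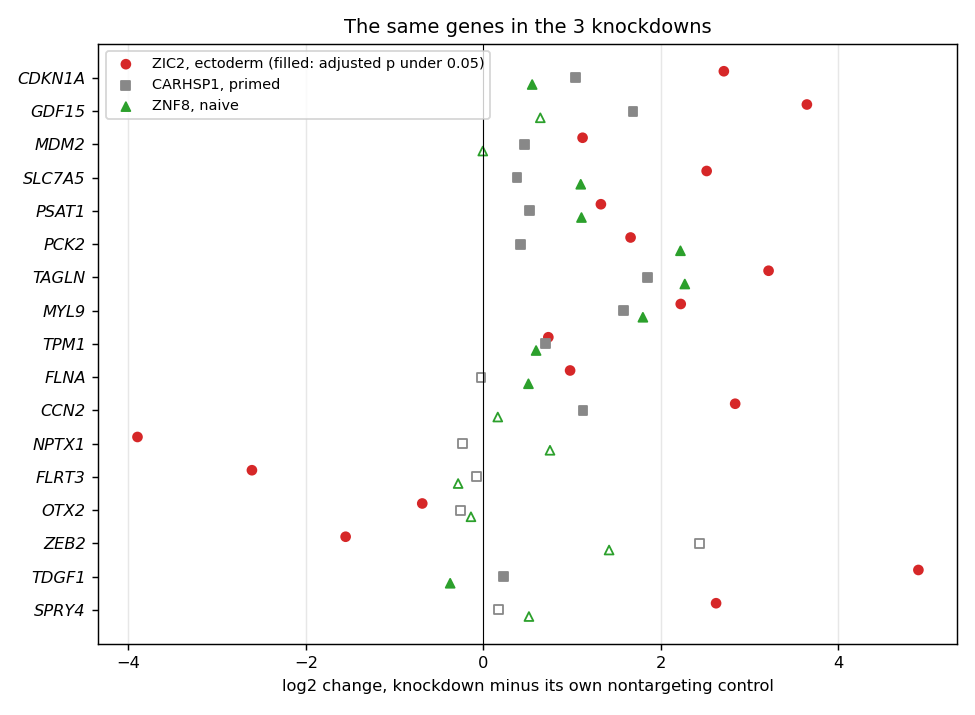
Log2 change of named genes in the ZIC2 knockdown in ectoderm (red circles), the CARHSP1 knockdown in primed cells (grey squares) and the ZNF8 knockdown in naive cells (green triangles), each against its own nontargeting control, in the fit over all 18 H1 libraries. Filled symbols passed at an adjusted p under 0.05; TAGLN, MYL9 and TPM1 are filled in all 3, and NPTX1, FLRT3 and OTX2 for ZIC2 only.

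The promoter windows were last searched for CAGCAGG, letters at the centre of the sequence that ZIC proteins bind, on both strands (reverse complement CCTGCTG). They stood in 9.09% of the 11058 promoters of tested genes, in 8.95% of those of higher genes and in 8.65% of those of lower genes. Among genes changed at least 2-fold the shares were 10.03% of 399 higher and 12.16% of 148 lower promoters. Of the named genes with the largest changes whose window was found, 3 held the letters. SPP1 and SERPINB9, which rose, held them after the start, 3 and 22 bases in. F10, coagulation factor X, which fell, held them before the start, and its 130 bases at chr13:113122669-113122798 (plus strand, GRCh38.p14) are shown with the match in capitals, 78 bases before the start.
F10: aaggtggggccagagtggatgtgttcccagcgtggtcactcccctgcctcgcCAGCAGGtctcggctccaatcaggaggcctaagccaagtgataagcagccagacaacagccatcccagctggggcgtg
F10 was at 6.05, 5.39 and 6.71 CPM in the controls and 1.33, 1.22 and 0.927 CPM in the knockdown libraries (log2 change -2.36 ± 0.34, edgeR adjusted p = 1.56e-05).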

How the data were processed

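Polyadenylated RNA of 6 ectoderm libraries was compared, with 12 further H1 libraries for the differences between knockdowns. The deposited table holds raw read counts per gene, made by the authors with HISAT2 on GRCh38 per the submitters' processing notes. For versions, counter, annotation and strand assignment: not given in the sources used here. Another 27 columns of per-sample values were not used. Gene symbols were matched for 42020 of 60671 genes, with positions from GENCODE 29. Counts were tested with edgeR 4.0.16 (R 4.3.3): low-count filter filterByExpr, TMM scaling, quasi-likelihood F test, Benjamini-Hochberg adjustment, threshold 0.05. The test was checked on simulated data. Members and gene lists were chosen with earlier results of these data known. Named genes were members of the ZIC family, the 12 largest changes in each direction at 5 CPM or more, the 10 largest length-scaled differences in each direction, up to 6 passing members per list with the smallest adjusted p, and members that did not pass. Some genes under this rule are not reported here. Counting intervals are 95% and cover counting error only, as does the floor of 3 counts. Genes with at most 3 counts in 1 group, such as ACTA1, ANXA1, ADM, TAC1 and NEUROD4, passed the low-count filter only through the other group. Alternatives were DESeq2 1.42.0, RLE scaling, other filters, all 18 libraries, a replicate block, removal of GC and length trends, and leaving out each of the 6 ectoderm libraries.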

Additional observations from a re-analysis of the deposited data

How the results depend on the processing

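The number of genes higher and lower in the ZIC2 knockdown stayed within 1.5 times of 2292 and 1925 under every alternative run. Leaving out 1 library gave 1710 to 2196 higher and 1332 to 1769 lower genes, with the fewest without nontargeting replicate 2. DESeq2 called 2127 higher and 1684 lower. With the trends in GC content and length removed, 3031 of the 4217 calls were shared in the same direction. Same-numbered libraries did not deviate together (correlations 0.0449, 0.0353 and -0.0129), so the numbers were not taken as pairs. With the replicate block 2398 genes were higher and 2062 lower, and with the block and the GC and length trends removed 1746 and 1989. For the differences from the CARHSP1 and ZNF8 knockdowns the replicate block gave 4664 and 3049 genes. Without 1 of the 6 ectoderm libraries these were 4018 to 4682 and 2644 to 3023, and no primed or naive library was left out. HES1 passed with the block (log2 change -0.29, edgeR adjusted p = 0.00882) and with the block and GC and length trends removed (0.0154). Genes that did not pass and turned sign were DNMT3B (log2 change -0.051 with GC and length trends removed, -0.050 with the block as well, and -0.029 to 0.034 when 1 library was left out), CDH1 (-0.031 to 0.016 when 1 library was left out) and PCNA (-0.058 to 0.15 likewise). TCF7L1, which passed, turned to -0.052 with GC and length trends removed and -0.053 with the block as well. The cause was not tested. Across alternatives the p53 list kept a count of 18 higher, the actin list 15 to 16 and the stress response list 16 to 17, while the Hedgehog list ranged from 2 to 5 higher and 2 to 6 lower. Depth limits genes with few counts, such as SHH and PAX3, for which no difference was detectable.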

Other observations

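Of 13 measured genes of retinoid handling 4 were higher (30.8%) and 2 lower (15.4%), against 15.3% and 12.8% of all tested genes, and 2 were higher without nontargeting replicate 3. CYP26C1, which degrades retinoic acid, fell from 6.02 ± 0.89 to 1.07 ± 0.221 CPM, and CRABP1, its cytoplasmic carrier, from 176 ± 11.5 to 93.6 ± 4.73 CPM. DHRS3, a retinal reductase, rose from 18.8 ± 2.47 to 33.7 ± 1.4 CPM. Among interferon and MHC class I genes 7 of 15 were higher (46.7%) and 1 lower (6.7%), or 4 and 1 with the trends in GC content and length removed. None was lower without nontargeting replicate 2, and 2 were lower without nontargeting replicate 3. HLA-B, a class I heavy chain, rose from 14.3 ± 0.465 to 34.5 ± 2.98 CPM. The HLA genes are near copies of each other, so their reads may be split.

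Subunits of the NuRD complex, a chromatin remodeller and deacetylase, gave 4 higher (28.6%) and 5 lower (35.7%) of 14. Over all tested genes 15.3% were higher and 12.8% lower. There were 2 higher without knockdown replicate 1, without nontargeting replicate 2 or 3, and with the trends in GC content and length removed. MTA3 was lower (347 ± 16.7 against 256 ± 4.73 CPM) and GATAD2A higher (121 ± 17.5 against 169 ± 19.9 CPM). The share of imprinted genes that passed, 18.2% in each direction, was near that of all tested genes. Of the 11 measured PEG10 and SNRPN rose (log2 changes 0.24 ± 0.06 and 0.21 ± 0.07) and DLK1 and PLAGL1 fell (log2 changes -1.86 ± 0.16 and -1.59 ± 0.48). SNRPN did not pass without knockdown replicate 3 or nontargeting replicate 3 (edgeR adjusted p = 0.127 and 0.0736), nor PLAGL1 without replicate 1 of either group (0.0756 without the knockdown and 0.127 without the nontargeting library). Of 18 sterol synthesis genes 6 fell (33.3%) and 4 rose (22.2%), or 2 rose with the trends in GC content and length removed. SQLE, squalene epoxidase, was lower (log2 change -0.46 ± 0.06). Transcripts of the mitochondrial genome made up 1.679% to 2.121% of counts in the knockdown libraries and 1.999% to 2.428% in the controls. Of the 13 genes 1 was higher (7.7%), 4 were lower (30.8%) and 8 did not pass. MT-CO1 fell from 4006 ± 327 to 2469 ± 243 CPM and MT-ATP6 rose from 1564 ± 175 to 2078 ± 310.3 CPM. These counts ranged from 1 to 4 higher and 3 to 7 lower over the alternatives.

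On chromosome 13, 2 neighbours of ZIC2 were lower too, a point chosen after their values were seen. Over all tested genes 12.8% were lower. The other tested genes of the region were not counted, and whether the region departs from that share was not tested. CLYBL (chr13:99606669-99897134) fell from 17.98 ± 1.79 to 8.19 ± 0.911 CPM and PCCA (chr13:100089015-100530437) from 95.3 ± 5.57 to 69.1 ± 5.37 CPM (log2 changes -1.13 ± 0.17 and -0.47 ± 0.08, edgeR adjusted p = 3.20e-05 and 1.73e-04), while ZIC5, between CLYBL and ZIC2, did not pass.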
